A study of Mus musculus with 6 samples.

Results

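The stefins and cystatins are small protein inhibitors of papain-like cysteine proteases, the class that holds most cathepsins. Gene expression was examined for 7 of them in mouse epidermal keratinocytes that lacked the Mediator subunit Med1. The 7 genes were the stefin A genes Stfa1, Stfa2, Stfa3 and Stfa2l1, the stefin B gene Cstb, and the cystatin genes Cst3 and Cst6. Their probes were taken from the bead array by the gene symbol in the platform annotation. Of the 7 genes, 6 had a probe, and these 6 had 7 probes of the 25697 on the array because Cst6 had a pair. Only 3 of the 7 probes, 1 each for Stfa1, Cstb and Cst3, were among the 10386 probes above background, meaning a detection p-value under 0.01 on at least 3 of the 6 arrays. No probe carried the symbol, Entrez ID or accession of Stfa2l1, so no value is given for it. The family was chosen by the array levels of KO and CON cells, the Stfa1 probe above all, so the values of its members are a description and no test is attached to them.

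The KO cells came from C57BL6 mice at 10 wk of age that carried MED1 fl/fl alleles and Cre driven by the K14 promoter, which is active in the basal layer, and cells that descend from it inherit the deletion. The CON cells came from MED1 fl/fl mice of the same strain and age that had no Cre, so both groups shared the floxed allele and only the KO group carried the transgene. There were 3 KO and 3 CON arrays, but by the labels each group drew on only 2 mice, and it is not given which arrays share a mouse. The p-values given for other genes therefore measure only the spread between these arrays, which may be partly technical. Skin was trypsinized, epidermis was parted from dermis, and the mild digestion was meant to leave differentiated cells behind. At this age hair follicles of KO skin had moved into anagen, their growth phase, and those of CON skin were resting in telogen. Effects of genotype and of hair cycle phase cannot be told apart here. Because each array held RNA of a whole cell preparation, a change in the number of cells of a type and a change in RNA per cell cannot be told apart either.

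Of the 10386 probes tested 27.4% passed at an adjusted p of 0.05, 13.5% higher and 14% lower in KO cells, and read by the brightest probe of each gene the share was 28.8%. The arrays detected between 9866 and 10636 probes each. Log2 levels correlated at 0.989 to 0.993 between arrays of a group and at 0.965 to 0.968 between a KO and a CON array, across probes. The 1 Med1 probe above background read 5.85, 5.71 and 6.13 on the KO arrays, against 7.09, 6.81 and 6.69 on the CON arrays, as log2 levels. The basal keratinocyte markers Krt5, Krt14, Krt15, Trp63, Itga6 and Itgb4 were above background on all arrays.

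Stefins lack a signal peptide and act inside the cell, whereas the type 2 cystatins, to which Cst3 and Cst6 belong, are secreted. Human stefin A is a component of the cornified envelope, the protein shell that transglutaminases crosslink beneath the membrane of a dying keratinocyte. The mouse has several stefin A genes in a tandem cluster, and these are also expressed strongly by mouse neutrophils. Stefin B is found in most cell types and cystatin C, the product of Cst3, in nearly all body fluids. Cystatin M/E, the product of Cst6, restrains cathepsins and legumain in the upper epidermis, and mice without it have a faulty skin barrier.

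The stefin A genes lie close together on chromosome 16 and their copies resemble one another beyond the coding sequence. The 250 bases before the annotated start of each are shown because they let the likeness of the copies be read directly. The sequences are from RefSeq (GRCm38.p6), which gave a promoter for 5 of the 7 genes, Cst3 included. They are written 5′ to 3′ on the strand of the gene, at chr16:36276898-36277147 (plus strand) for Stfa1, chr16:36408364-36408613 (minus strand) for Stfa2, chr16:36156561-36156810 (plus strand) for Stfa2l1 and chr16:36455393-36455642 (minus strand) for Stfa3. Capitals mark ACCTTTAAAACCC, the longest run that all 4 share in the last 50 bases before the start.
Stfa1: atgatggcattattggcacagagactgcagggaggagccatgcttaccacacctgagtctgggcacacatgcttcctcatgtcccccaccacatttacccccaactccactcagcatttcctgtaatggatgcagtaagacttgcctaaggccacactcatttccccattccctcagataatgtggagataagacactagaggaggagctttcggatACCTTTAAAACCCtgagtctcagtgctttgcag
Stfa2: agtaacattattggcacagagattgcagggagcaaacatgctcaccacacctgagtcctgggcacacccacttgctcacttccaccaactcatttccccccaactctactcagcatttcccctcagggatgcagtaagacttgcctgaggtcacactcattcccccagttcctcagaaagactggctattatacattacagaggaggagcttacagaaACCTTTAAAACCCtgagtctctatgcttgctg
Stfa2l1: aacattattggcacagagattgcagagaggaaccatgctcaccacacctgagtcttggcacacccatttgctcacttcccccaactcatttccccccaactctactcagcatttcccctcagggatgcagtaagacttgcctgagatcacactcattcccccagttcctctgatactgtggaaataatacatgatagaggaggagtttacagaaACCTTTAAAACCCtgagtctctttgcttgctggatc
Stfa3: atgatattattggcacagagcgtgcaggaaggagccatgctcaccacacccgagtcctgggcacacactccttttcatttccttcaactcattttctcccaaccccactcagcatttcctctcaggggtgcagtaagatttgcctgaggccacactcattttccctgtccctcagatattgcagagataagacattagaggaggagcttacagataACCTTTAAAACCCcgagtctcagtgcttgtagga

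The run of 13 bases in capitals began 33 bases before the start in Stfa1, 32 in Stfa2, 36 in Stfa2l1 and 34 in Stfa3. It was picked after the sequences had been seen, and it was searched on both strands in the 300 bases from 250 before to 50 after the start. It was found in 9 of 32851 annotated mouse promoters, or 0.0274%. The 9 all lay on chromosome 16 between Stfa2l1 and Stfa3, and beside the 4 shown they were those of Csta3, Cstdc3, Cstdc4, Cstdc5 and Gm7260. In Csta3 the run began 80 bases before the start. The TATA box letters TATAAA, present in 13.6% of promoters, were in none of the 5 promoters. TGACTCA and its reverse complement TGAGTCA, the AP-1 letters, were in 5.2% of promoters and among the 5 only in Stfa3, 30 bases after the start. A match or its absence describes these letters in this window and says nothing of the factor.

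By global alignment the 4 stefin A promoters shared between 80.4% and 89.4% of alignment columns. Stfa2 and Stfa2l1 were the closest pair at 89.4%, and Stfa1 was closest to Stfa3 at 83.5%. Stfa1 shared 81.0% with Stfa2 and 80.9% with Stfa2l1. Csta3 shared 61.1% with Stfa1. Csta1, the stefin at the edge of the cluster, shared 41.5% with Stfa1, which was below the 44.4% between Stfa1 and Cst3. The 4 stefin A promoters held 47.2% to 49.6% G and C and 0 to 3 CpG dinucleotides, whereas that of Cst3 held 59.6% and 8. The medians over all promoters were 52.4% and 6 CpG dinucleotides.

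**Figure D1:**
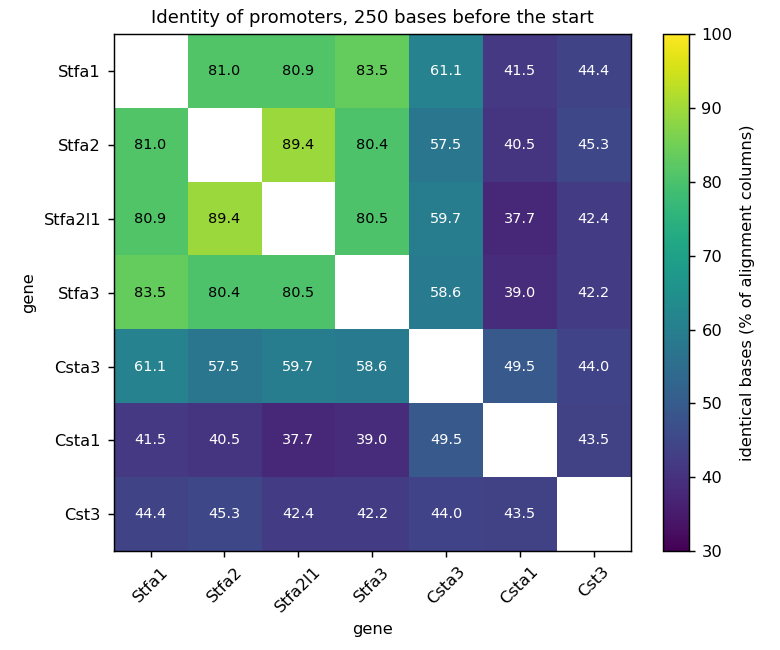
Identity between the promoters of 4 stefin A genes and of Csta3, Csta1 and Cst3, each the 250 bases before the start, as percent of alignment columns (colour and printed value, both axes list the genes). The 4 stefin A genes form a block at 80.4% to 89.4%, and the pairs between Stfa1 and the other 3 genes lie at 41.5% to 61.1%.

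Stfa1 was the member with the largest difference between the groups. Its probe ILMN_2988931 had log2 levels of 10.74, 10.85 and 10.72 on the KO arrays, against 7.21, 7.07 and 6.78 on the CON arrays. All 3 KO arrays were high, the groups did not overlap, and the lowest KO array stood 3.52 log2 units above the highest CON array. The mean log2 level was 10.77 ± 0.07 in KO cells and 7.02 ± 0.22 in CON cells (SD, n = 3 each). The log2 change was 3.75 ± 0.12 (SE, 95% interval 3.47 to 4.04), or 13.5-fold. It was the greatest rise among the brightest probes of the 7461 genes tested. The deposited intensities, before any correction, were 1492, 2041 and 1981 in KO cells, against 269.5, 219.2 and 183.0 in CON cells, and their means differed 8.21-fold. The fold thus depended on how background was treated, and the log2 change was 3.08 without background correction.

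The probe sequences were not used here. Given how alike the stefin A copies are, the share of the Stfa1 signal that came from transcripts of Stfa2, Stfa3, Stfa2l1 or other copies was not tested. The value is best read as that of the Stfa1 probe rather than of the Stfa1 gene alone.

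The probes of the other stefin A genes were not above background on any array. Stfa2 (ILMN_2736774) read 4.42, 4.32 and 4.40 on the KO arrays, against 4.54, 4.31 and 4.28 on the CON arrays, as log2 levels. Stfa3 read 4.29, 4.26 and 4.58 on the KO arrays, against 4.43, 4.35 and 4.34 on the CON arrays. The KO and CON arrays overlapped for both, and all 12 values lay below the lowest level that a detected probe reached on any array, 5.09. Their deposited intensities ran from 95.1 to 109.1 in KO cells and from 94.6 to 113.0 in CON cells, near the array medians of 105.7 to 117.3. No fold is given for values under background.

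Cstb, the broadly expressed intracellular inhibitor stefin B, was among the brightest signals. Its probe ILMN_2700715 had log2 levels of 14.39, 14.42 and 14.50 on the KO arrays, against 13.85, 13.85 and 13.82 on the CON arrays. The groups did not overlap, with 0.54 log2 units between the lowest KO and the highest CON array. The means were 14.44 ± 0.06 in KO cells and 13.84 ± 0.02 in CON cells (SD, n = 3 each), a log2 change of 0.60 ± 0.09 (SE, 95% interval 0.40 to 0.81), or 1.52-fold. The deposited intensities were 20375, 21702 and 22654 in KO cells, against 16350, 14674 and 13265 in CON cells. Quantile normalization gives probes of the same rank the same level on each array, and CON arrays 1 and 2 both read 13.8453. The SDs and the gap between the groups are thus partly set by rank and may understate the spread between arrays.

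Cst3, which encodes the secreted cystatin C, differed little. Its probe ILMN_1257575 had log2 levels of 12.63, 12.41 and 12.39 on the KO arrays, against 12.63, 12.70 and 12.49 on the CON arrays. The groups overlapped, since the first KO array lay above 2 of the CON arrays. The means were 12.48 ± 0.13 in KO cells and 12.60 ± 0.11 in CON cells (SD, n = 3 each), and the log2 change was -0.13 ± 0.11 (SE, 95% interval -0.38 to 0.12).

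Cst6, the epidermal cystatin M/E, could not be followed on these arrays. Its probe ILMN_1247676 read 4.59, 4.35 and 4.36 on the KO arrays, against 4.46, 4.42 and 4.33 on the CON arrays, as log2 levels. Its probe ILMN_2872851 read 4.80, 4.44 and 4.66 on the KO arrays, against 4.41, 4.45 and 4.58 on the CON arrays. The lowest detection p-value of the second probe was 0.0539, on the first KO array, so neither probe was above background on any array. A probe at background does not show that a gene is silent. The cathepsin genes Ctsl and Ctsd, which most cells use, also had no array with a probe above background.

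Over the 3 members tested, 2 rose and 0 fell by the rule used for all genes, where 14.1% of the 7461 genes rose and 14.7% fell. The groups did not overlap for 2 of the 3, and for 45.2% of all genes tested. Nothing is read from these counts because the same contrast chose the members.

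**Figure D2:**
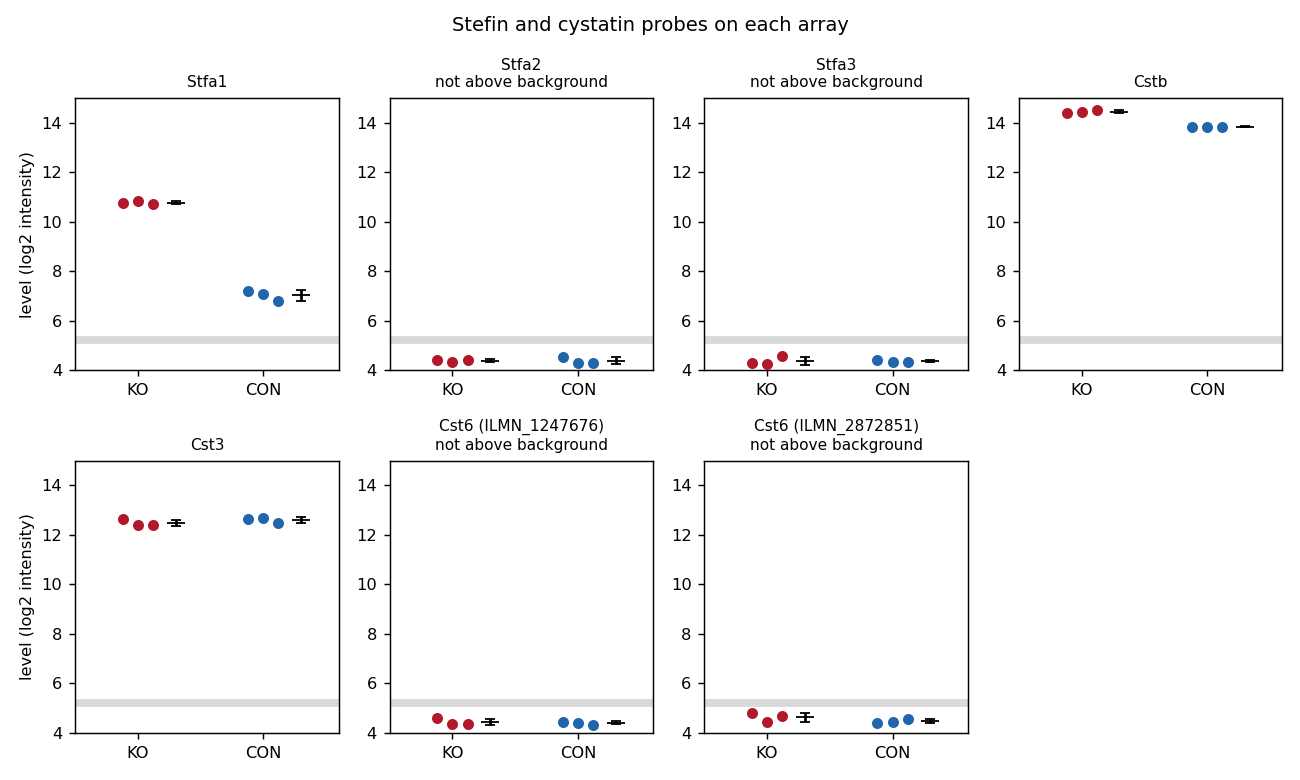
Log2 level of each member probe on each array (points, KO in red and CON in blue) with the group mean and SD beside them (black, n = 3 each), and the grey band spans the lowest detected level over the arrays, 5.09 to 5.33. Stfa1 is separated by 3.52 log2 units between groups, Cstb by 0.54, Cst3 overlaps, and the 4 probes of Stfa2, Stfa3 and Cst6 lie under the band on every array.

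Of 26 further genes of the cystatin superfamily, 20 were on the array and 2 were tested, and 0 rose and 0 fell, against 14.1% and 14.7% of all genes tested. Lxn, the carboxypeptidase inhibitor latexin, averaged 9.79 in KO cells and 9.86 in CON cells as log2 levels, a change of -0.06 ± 0.14 (SE, limma adjusted p = 0.774). Cst7, cystatin F of immune cells, averaged 5.60 in KO cells and 5.21 in CON cells, a change of 0.39 ± 0.16 (SE, limma adjusted p = 0.107), and was detected on 2 KO arrays and 1 CON array. For 15 of the genes the brightest probe was above background on no array.

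A pair of genes in or beside the stefin A cluster gave a signal on some KO arrays only and did not reach the number of arrays needed for a test. Csta3 read 4.69, 5.31 and 5.41 on the KO arrays, against 4.39, 4.35 and 4.36 on the CON arrays, as log2 levels, and was detected on 2 KO arrays and on 0 CON arrays. Its deposited intensities were 106.1, 127.3 and 132.3 in KO cells, against 107.0, 100.6 and 98.9 in CON cells. Csta1 read 4.53, 5.02 and 5.19 on the KO arrays, against 4.52, 4.49 and 4.78 on the CON arrays, and was detected on 1 KO array and on 0 CON arrays. Csta2, Cstdc4 and Cstdc6 were detected on 0 of the 6 arrays.

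The proteases that stefins and cystatins inhibit were not used to choose the members. Their list was drawn up with earlier results of these data known, so its counts are not an independent check. Of 11 cysteine cathepsins and legumain, all on the array, 6 were tested, of which 4 rose and 0 fell, against 14.1% and 14.7% of all genes tested. Their median log2 change was 0.53, and that of all genes tested was -0.0015. Ctsk, Ctsl, Ctso and Ctss were above background on no array, and Ctsz on 1 CON array alone.

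Ctsc, cathepsin C, which activates granule serine proteases, showed the largest change of the 6. Its log2 levels were 10.63, 10.70 and 10.60 on the KO arrays, against 9.59, 9.34 and 9.58 on the CON arrays. All KO arrays lay above all CON arrays, with a change of 1.14 ± 0.11 (SE, 2.21-fold, limma adjusted p = 0.000132). Ctsb, the abundant lysosomal cathepsin B, had log2 levels of 11.29, 11.24 and 11.16 on the KO arrays, against 10.97, 10.80 and 10.51 on the CON arrays. Its change was 0.47 ± 0.13 (SE, 1.38-fold, limma adjusted p = 0.0283). That call was lost without any 1 of the KO arrays, or without CON array 2 or 3, where the adjusted p ran from 0.0536 to 0.0847. Over all 17 alternatives it ran from 0.00135 to 0.104.

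Ctsf, the broadly expressed cathepsin F, had log2 levels of 8.57, 8.42 and 8.25 on the KO arrays, against 7.62, 8.01 and 7.83 on the CON arrays, with no overlap and a change of 0.59 ± 0.13 (SE, 1.51-fold, limma adjusted p = 0.0115). Its call was lost with the methods' t-test (adjusted p = 0.069). Without background correction the change was 0.45 for Ctsf and 0.55 for Ctsw. Ctsw, a cathepsin of cytotoxic T and NK cells, had log2 levels of 8.64, 8.75 and 8.73 on the KO arrays, against 7.82, 8.10 and 8.12 on the CON arrays, a change of 0.70 ± 0.11 (SE, 1.62-fold, limma adjusted p = 0.00229). Several markers of T and NK cells moved with it. Of 12 on the array 7 were tested, of which 5 rose and 0 fell, against 14.1% and 14.7% of all genes tested, and the summed linear level of the 12, with the offset taken off, was 3798 to 4344 on the KO arrays and 2907 to 3166 on the CON arrays. Cd3d changed by 0.54 ± 0.10 (SE, limma adjusted p = 0.0040) and Thy1 by 0.53 ± 0.10 (SE, limma adjusted p = 0.00578), while Ptprc, Cd8a, Cd4 and Klrb1c were above background on no array. Cd3g and Cd247 were tested but did not pass, with changes of 0.38 and -0.06 (limma adjusted p = 0.052 and 0.79). Of the 5 rises, those of Cd3e and Nkg7 were both lost without KO array 1 or 2 or CON array 1 or 2, with adjusted p of 0.0543 to 0.143, and the list then held 3 or 4 genes that rose. That of Cd3e was lost without KO array 3 too (adjusted p 0.0853). Cd5, above background on 0 CON arrays, met the filter through the KO arrays alone and did not pass without background correction (change 0.18, limma adjusted p = 0.066). The part of these cells in the change of Ctsw was not tested.

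The remaining tested proteases of the list did not pass. Ctsh, cathepsin H, changed by 0.12 ± 0.09 (SE, 95% interval -0.09 to 0.33, limma adjusted p = 0.39). Lgmn, the asparaginyl endopeptidase legumain, changed by -0.16 ± 0.12 (SE, 95% interval -0.44 to 0.12, limma adjusted p = 0.38). Proteases that are not papain-like gave few values. Ctsa, a serine carboxypeptidase, was the 1 of 4 aspartic and serine cathepsins tested and changed by 0.09 ± 0.11 (SE, limma adjusted p = 0.58), and 0 of 9 placental cathepsins were tested. Of 10 calpains and related genes on the array 7 were tested, of which 1 rose and 2 fell, against 14.1% and 14.7% of all genes tested. Capn2 changed by 0.45 ± 0.14 (SE, limma adjusted p = 0.044), Capn1 by -0.40 ± 0.10 (SE, limma adjusted p = 0.0215) and Capn5 by -0.34 ± 0.09 (SE, limma adjusted p = 0.0232). All 3 calpain calls were lost on leaving out 1 of several arrays, KO array 1 or 2 for each, with adjusted p up to 0.0790 for Capn1, 0.144 for Capn2 and 0.0734 for Capn5. Without background correction Capn2 changed by 0.22 and Capn1 by -0.26.

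Transglutaminases, which crosslink stefin A and other proteins into the cornified envelope, changed in both directions. Of 7 on the array 4 were tested, of which 3 rose and 1 fell, against 14.1% and 14.7% of all genes tested. Tgm1, the membrane-bound keratinocyte transglutaminase, averaged 7.67 in KO cells and 6.25 in CON cells as log2 levels, a change of 1.43 ± 0.12 (SE, 2.69-fold, limma adjusted p = 7.3e-05). Without background correction the change of Tgm1 was 0.84, and the fitted changes of Tgm2 and Tgm3 were 0.27 and 0.24. Tgm3, the transglutaminase of late differentiation and hair, was above background on 3 KO arrays and 0 CON arrays and was at least 1.13-fold higher in KO cells. That bound sets the KO mean against the lowest detected level on each CON array. The limma adjusted p of 0.0064 belongs to the fitted change of 0.76, which uses CON levels under background, and does not test the bound. Tgm3 met the filter through the KO arrays alone, so its place among the 3 that rose follows partly from the filter. Tgm2, the widespread tissue transglutaminase, changed by 0.81 ± 0.19 (SE, limma adjusted p = 0.0153), with 1 CON array above background, and its adjusted p was 0.0569 without KO array 3 and 0.0527 without CON array 1. Tgm5, an epidermal transglutaminase, fell by 1.07 ± 0.14 on the log2 scale (SE, limma adjusted p = 0.00072).

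**Figure D3:**
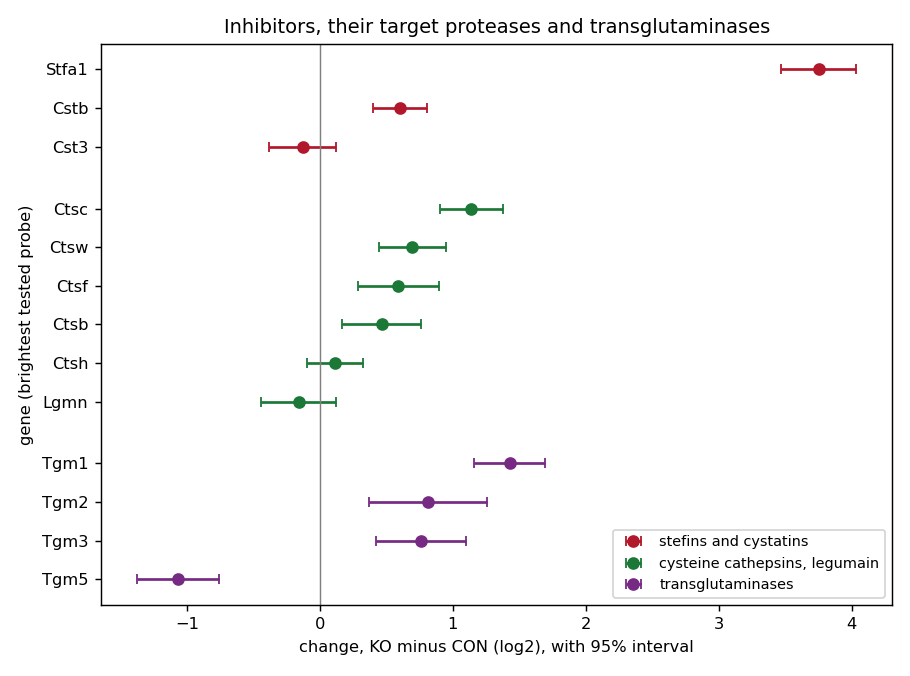
Log2 change, KO minus CON (horizontal axis, points with 95% intervals), for the tested stefins and cystatins (red), cysteine cathepsins and legumain (green) and transglutaminases (purple), 1 gene a row. Stfa1 lies at 3.75, the cathepsins between 0.12 and 1.14, legumain at -0.16 and the transglutaminases between -1.07 and 1.43; the fitted value drawn for Tgm3 rests on CON arrays at background.

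The layers of the epidermis were read from markers. Of 7 differentiation markers on the array 6 were tested, of which 2 rose and 0 fell, against 14.1% and 14.7% of all genes tested, and their summed linear level was 35349 to 38462 on the KO arrays and 35136 to 36153 on the CON arrays. Ivl, the envelope protein involucrin, changed by 0.58 ± 0.10 (SE, limma adjusted p = 0.00389), and Casp14, the caspase of cornification, by 0.49 ± 0.10 (SE, limma adjusted p = 0.0090). Krt1, Krt10, Lor and Calml3 did not pass. Krt10, at log2 levels of 14.42 to 14.56, made up the largest part of the sum of the differentiation markers. It read 14.5572 on KO array 1 and on CON arrays 2 and 3, so that sum is partly set by rank. Of 6 basal markers 0 rose and 4 fell, against 14.1% and 14.7% of all genes tested. Without any 1 array 3 fell, since the call of Trp63 was then lost (adjusted p 0.0573 to 0.142). The sum of the 6 markers was 53490 to 53533 on the KO arrays and 68983 to 71620 on the CON arrays. Krt14 read 14.73 on all 6 arrays, because quantile normalization gives probes of the same rank the same level. It could therefore not pass in either direction, and its fixed level is part of both sums. The basal keratin Krt15 fell by 1.36 ± 0.09 on the log2 scale (SE, limma adjusted p = 2.9e-05) and Krt5 by 0.68 ± 0.10 (SE, limma adjusted p = 0.00137). The part of a shift between layers in the levels of Stfa1 and Cstb was not tested.

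Neutrophil markers were read because neutrophils carry much stefin A message in the mouse. Of 16 on the array, 14 were above background on no array, among them the granule genes Ngp, Camp, Ltf, Mpo, Elane and Prtn3 and the receptor Cxcr2. Csf3r was detected on 1 KO array. Mmp9, a gelatinase made by other cells as well, was the 1 tested and fell by 0.85 ± 0.12 on the log2 scale (SE, limma adjusted p = 0.0015). That change was -0.44 without background correction. The summed linear level of the 16 was 130.1 to 183.5 on the KO arrays and 187.1 to 197.1 on the CON arrays, and Mmp9 alone made up 43.3 to 62.3 of it on the KO arrays and 109.5 to 115.3 on the CON arrays. Without Mmp9, a sum added after the data had been seen, the other 15 markers came to 86.8 to 121.2 on the KO arrays and 77.5 to 85.3 on the CON arrays, nearly all of it from probes at background. The part of neutrophils in the level of the Stfa1 probe was not tested. Of 9 macrophage and monocyte markers 0 were tested and 8 were above background on no array. Their sums, 78.9 to 98.5 on the KO arrays and 77.8 to 96.0 on the CON arrays, came mostly from probes at background. Langerhans and dendritic cell markers went the other way from Stfa1, with 6 tested of 8, of which 0 rose and 5 fell, among them Cd86, whose call was lost under 15 of 17 alternatives (adjusted p 0.0341 to 0.144), against 14.1% and 14.7% of all genes tested, and sums of 3378 to 3718 on the KO arrays and 5541 to 6349 on the CON arrays. Cd74, the chaperone of MHC class II, fell by 0.85 ± 0.11 on the log2 scale (SE, limma adjusted p = 0.000907). Of 6 mast cell markers 0 were tested and all 6 were above background on no array. Their sums, 29.6 to 37.5 on the KO arrays and 35.2 to 50.6 on the CON arrays, came from probes at background, and nothing is read from them.

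Other marker lists held genes that fell. Of 8 fibroblast markers 3 were tested and all 3 fell, or 2 without any 1 array but CON array 3, since the call of Fbln1 was then lost (adjusted p 0.0510 to 0.128), with sums of 409.1 to 456.8 on the KO arrays and 651.9 to 711.2 on the CON arrays. Of 5 melanocyte markers 4 were tested, of which 0 rose and 3 fell, with sums of 280.1 to 300.3 on the KO arrays and 625.1 to 677.0 on the CON arrays. For both lists the share over all genes tested was 14.1% that rose and 14.7% that fell.

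Genes beside the stefin A cluster were examined to describe whether the difference at Stfa1 was shared along the chromosome. Of the 10 nearest named coding genes on each side, 18 of 20 were on the array and 10 were tested, of which 3 rose and 3 fell, against 14.1% and 14.7% of all genes tested. Their median log2 change was 0.04. The 3 that rose, Fam162a, Parp14 and Ccdc58, all lay on the Csta1 side, and the 3 that fell, Iqcb1, Slc15a2 and Cd86, all lay on the Casr side. The fall of Cd86, a costimulator of antigen-presenting cells (limma adjusted p = 0.0495), was lost under 15 of 17 alternatives, among them leaving out any 1 array but CON array 2, and its adjusted p over the alternatives ran from 0.0341 to 0.144.

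Fam162a, a mitochondrial protein induced in hypoxia, had log2 levels of 10.17, 10.11 and 10.14 on the KO arrays, against 9.33, 9.48 and 9.26 on the CON arrays, a change of 0.78 ± 0.10 (SE, limma adjusted p = 0.00067). Parp14, an interferon-induced ADP-ribosyltransferase, changed by 0.49 ± 0.10 (SE, limma adjusted p = 0.0062). Iqcb1, a ciliary protein, had log2 levels of 8.40, 8.48 and 8.57 on the KO arrays, against 9.56, 9.40 and 9.51 on the CON arrays, and fell by 1.01 ± 0.10 on the log2 scale (SE, limma adjusted p = 0.00018). Slc15a2, a peptide transporter, fell by 0.79 ± 0.14 on the log2 scale (SE, limma adjusted p = 0.0046), or by 0.34 without background correction. All 4 changes were smaller than that of the Stfa1 probe. That probe had the greatest rise among the genes tested and led the choice of the family, so nothing is read from the comparison.

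**Figure D4:**
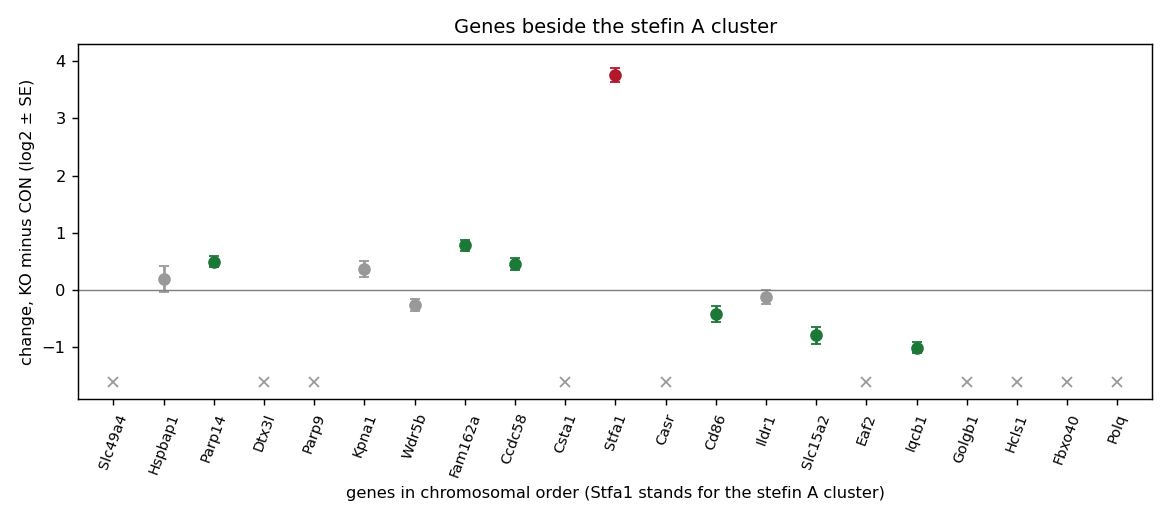
Log2 change, KO minus CON, ± SE (vertical axis) for the 10 named coding genes on each side of the stefin A cluster in chromosomal order (horizontal axis), with Stfa1 standing for the cluster in red, genes that passed the test in green, genes that did not in grey, and crosses at the foot for genes that were not tested. Stfa1 lies at 3.75 and the 10 tested neighbours between -1.01 and 0.78.

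At the other loci 24 neighbours were tested, of which 4 rose and 3 fell, against 14.1% and 14.7% of all genes tested. Beside Cstb 8 were tested, of which 2 rose and 1, Ilvbl, fell, a call that was lost without any 1 array (adjusted p 0.0563 to 0.141). Dnmt3l, a cofactor of DNA methyltransferases in germ cells, averaged 7.53 ± 0.13 in KO cells and 5.11 ± 0.30 in CON cells as log2 levels (SD, n = 3 each), a change of 2.42 ± 0.16 (SE, limma adjusted p = 2.6e-05). On 2 of the 3 CON arrays its level was under 5.09, the lowest that a detected probe reached, and the change was 1.15 without background correction. Casp14, given above with the differentiation markers, was the other gene that rose there. Beside Cst3 5 were tested, of which 1 rose and 0 fell, the gene that rose being Apmap, an adipocyte membrane protein, with a change of 0.74 ± 0.11 (SE, limma adjusted p = 0.0015). Beside Cst6 11 were tested, of which 1 rose, the cathepsin gene Ctsw, and 2, Pacs1 and Ccdc85b, fell. Neither fall held without KO array 2 or 3 or without any 1 CON array, and that of Ccdc85b was lost without KO array 1 too, with adjusted p of 0.0557 to 0.115 for Pacs1 and 0.0502 to 0.0953 for Ccdc85b where the call was lost. Over the 4 loci 34 neighbours were tested, of which 7 rose and 6 fell. The 7 rises held without any 1 array, whereas only 2 or 3 of the 6 falls did, those of Iqcb1 and Slc15a2 each time.

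The genes whose pattern over the 6 arrays was most like that of the Stfa1 probe were found by the mean absolute difference of centred log2 levels. They were Sprr1b at 0.38, Otud7a at 0.40, Cxcl9 at 0.47, Chil1 at 0.51 and Ifi27l2a at 0.54 log2 units. Sprr1b, a cornified envelope precursor, read 8.76, 8.38 and 8.44 on the KO arrays, against 5.55, 5.61 and 5.43 on the CON arrays. Chil1, a chitinase-like protein, read 10.51, 10.51 and 10.52 on the KO arrays, against 7.66, 7.84 and 7.82 on the CON arrays. All 5 were high on the KO arrays and low on the CON arrays, with log2 changes of 2.67 to 2.99. Cxcl9 and Ifi27l2a are interferon-induced genes and Otud7a encodes a deubiquitinase. Sprr1b, Otud7a and Cxcl9 read 5.43 to 5.95 on the CON arrays, near the lowest detected levels of 5.09 to 5.33. Their changes without background correction were not computed. The likeness follows mainly from the shared split between KO and CON arrays.

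For Cstb, chosen for the same comparison after its values had been seen because Cst6 was at background, the closest were Sgo1, Dpp4, Adat2, Bscl2 and Slc31a1, at 0.033 to 0.038 log2 units. Dpp4, a cell surface dipeptidyl peptidase, read 7.74, 7.79 and 7.94 on the KO arrays, against 7.24, 7.26 and 7.15 on the CON arrays. Their log2 changes ran from 0.54 to 0.65, around the 0.60 of Cstb.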

How the data were processed

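Epidermal keratinocytes of Med1 KO and CON mice were profiled on 6 Illumina mouse bead arrays, 3 a group, read in 1 colour. The authors deposited probe intensities that were neither background-corrected nor normalized, each with a detection p-value against the array's negative control beads, as the deposited table holds them. They summarized the beads in GenomeStudio, version 2011.1 per the submitters' processing notes. A second deposited table of intensities, normalized by the authors in GenomeStudio, served as an alternative; which of its options they used is not stated, and each column correlated with its own array at 0.999 or above.

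Intensities were background-corrected, quantile-normalized and put on the log2 scale with neqc (limma 3.58.1, R 4.3.3, offset 16), with the background inferred from the detection p-values. Probes with a detection p-value under 0.01 on at least 3 of 6 arrays were tested (10386 of 25697) by limma's moderated test, two-sided, with Benjamini-Hochberg adjustment over all tested probes and a threshold of 0.05. A gene was read by its brightest tested probe, or by its brightest probe where none was tested. Platform annotation gave 1 symbol for 23978 probes and none for 1719. Levels were not compared between probes. The number of arrays limits the precision. On simulated data the fit was checked before use. No pair of arrays was a copy of the same intensities, which does not show that the arrays came from different mice.

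The members and the lists of proteases, markers and neighbours were chosen with earlier results of these data known. Named genes were all members, every tested cysteine cathepsin, up to 6 genes that passed per pathway list and 3 per marker list, up to 3 neighbours that passed per locus, and the 5 most similar profiles. Promoters (RefSeq, GRCm38.p6) were aligned with Biopython 1.88. Protein sequences were not used here. The alternatives were other background corrections, normalizations and filters, the authors' table, other variance settings, the methods' t-test, the replicate number as a block and leaving out each array.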

Additional observations from a re-analysis of the deposited data

How the results depend on the processing

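The log2 change of the Stfa1 probe was 3.75 and ran from 3.08 to 3.85 over 12 alternatives: 3.078 without background correction, 3.443 with an offset of 50, 3.0826 with the authors' normalized table, and 3.63 to 3.85 on leaving out each array. Cstb ran from 0.484, with cyclic loess, to 0.627, and Cst3 from -0.21 to -0.04, so none of the 3 changed sign. With the methods' t-test 952 probes were higher and 949 lower after Benjamini-Hochberg adjustment, 3597 had an unadjusted p-value under 0.05 (4051 with the moderated test), 2 cysteine cathepsins rose rather than 4, 1 transglutaminase rose rather than 3, and 0 calpains rose. Transglutaminases that rose also numbered 1 when detection on all 6 arrays was asked for. Calpains that rose numbered 0 with median scaling, without a filter and with the looser filter, and 0 to 1 on leaving out each array, and those that fell numbered 0 to 2. Among 812 values of named genes under alternatives 696 kept call and direction, 109 lost the call, 7 gained it and 0 reversed.

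Replicate numbers gave no sign of pairing: residuals of same-numbered KO and CON arrays correlated at -0.03, 0.07 and -0.05, and 2 of 6 arrays correlated best with their own number. With so few arrays this cannot exclude pairing. The paper describes the controls as littermates without Cre, and which arrays share a litter is not given. With the replicate number as a block 1241 probes were higher and 1277 lower, the change of Stfa1 stayed at 3.75, that of Cstb at 0.60 and that of Cst3 at -0.13, and 1 calpain fell rather than 2. The probes of Stfa2, Stfa3 and Cst6 were limited by signal over background.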
